A study of Mus musculus with 10 samples.

Results

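The genes described here are 8 members of the bone morphogenetic protein (BMP) pathway in mouse embryonic stem (ES) cells. They are Bmp4, a ligand, Bmpr1a, a type I receptor, Bambi, a decoy receptor, Smad6, an inhibitory Smad, and 4 target genes, Id1, Id2, Id3 and Msx1. They were chosen by symbol among 22713 gene IDs in the deposited tables, and all 8 were found. Pontinf/f; CreER ES cells, derived from blastocysts and carrying floxed Pontin with an OHT-inducible Cre, gave 1 mRNA library without treatment (WT), 1 at 3 days (OHT 3D) and 1 at 4 days (OHT 4D) of OHT, which deletes Pontin. ZHBTc4 ES cells, in which tetracycline (Tc) shuts off the only active Oct4, a transgene, gave 1 library at 2 days of Tc (Tc 2D). The same ZHBTc4 line without Tc gave 2 libraries at 4 days after infection with the pLKO control lentivirus and 2 at 4 days after a pLKO shlinc1253 lentivirus, which targets the noncoding RNA linc1253, and 1 Pontin and 1 GFP ChIP-seq library from untreated cells. The ES cells were grown in LIF and serum, with or without fibroblast feeders, and no label says which library came from which.

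BMP ligands such as Bmp4 bind type I receptors such as Bmpr1a together with type II receptors. The receptors phosphorylate Smad1 and Smad5, which enter the nucleus with Smad4 and switch on target genes. The Id genes are among the most direct of these targets. Id proteins hold E proteins away from DNA, and in ES cells grown with LIF the BMP and Id axis is known for holding back neural differentiation. Smad6 and Bambi are both targets and inhibitors of the pathway. Msx1 is a homeobox target gene.

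Bmp4, Id1, Id2 and Id3 were the genes that rose together after Pontin depletion, and the 250 b before their start sites are printed here for that reason. They were read from NCBIM37, the build of the files, on the gene's own strand from 5′ to 3′, at chr14:47010345-47010594, - strand for Bmp4, chr2:152561737-152561986, + strand for Id1, chr12:25780958-25781207, - strand for Id2 and chr4:135699162-135699411, + strand for Id3. Capitals mark GGCGCC, a GC-rich sequence known to bind BMP-activated Smads, which reads the same on both strands.
Bmp4: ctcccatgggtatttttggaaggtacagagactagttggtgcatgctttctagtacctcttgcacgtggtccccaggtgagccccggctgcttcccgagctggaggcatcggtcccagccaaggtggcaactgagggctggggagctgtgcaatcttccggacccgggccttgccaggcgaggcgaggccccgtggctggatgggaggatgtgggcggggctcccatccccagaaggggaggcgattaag
Id1: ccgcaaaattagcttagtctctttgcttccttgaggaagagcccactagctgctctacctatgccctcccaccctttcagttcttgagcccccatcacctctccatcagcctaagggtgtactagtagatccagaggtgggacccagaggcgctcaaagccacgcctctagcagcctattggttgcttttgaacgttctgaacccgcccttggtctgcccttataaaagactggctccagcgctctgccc
Id2: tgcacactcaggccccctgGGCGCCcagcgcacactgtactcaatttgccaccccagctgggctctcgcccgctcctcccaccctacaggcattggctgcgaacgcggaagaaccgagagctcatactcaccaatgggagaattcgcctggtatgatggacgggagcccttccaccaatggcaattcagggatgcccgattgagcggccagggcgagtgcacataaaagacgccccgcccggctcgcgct
Id3: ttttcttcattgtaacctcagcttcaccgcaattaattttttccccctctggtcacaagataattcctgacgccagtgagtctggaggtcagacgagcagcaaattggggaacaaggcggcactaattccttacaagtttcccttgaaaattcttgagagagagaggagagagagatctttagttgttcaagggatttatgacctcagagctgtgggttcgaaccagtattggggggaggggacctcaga

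GGCGCC stood in these 250 b at Id2, 231 b upstream of the start site, and not at Bmp4, Id1 or Id3. Among 22379 promoters, 11.1% held it in that stretch. In the wider stretch between 2.5 kb before and 500 b past the start site, 7 of the 8 genes held it at least once against 38.2% of promoters, and Bmp4 did not. The matches of Bmpr1a lay past its start site, at 426 and 468 b, as did the only match of Id3, at 7 b. Smad6 and Bambi had matches on both sides, with those past the start site at 231 and 168 b. The 8 genes were 48.0% (Bmpr1a) to 56.6% (Smad6) GC in this wider stretch. The share over promoters was not matched for GC content, so the count is not a measure of enrichment. The matches of Id1 and Smad6 that lay farther upstream, 1099 and 1002 b before the start site, are shown with 37 b on either side, that of Id1 because its change at Tc 2D depended on the control, and that of Smad6 because the gene rose there against both controls. They lie at chr2:152560851-152560930, + strand, and at chr9:63870826-63870905, - strand.
Id1 distal: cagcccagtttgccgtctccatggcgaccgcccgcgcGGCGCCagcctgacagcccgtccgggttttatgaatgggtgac
Smad6 distal: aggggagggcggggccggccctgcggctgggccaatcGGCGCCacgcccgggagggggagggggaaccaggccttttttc
A match is a description of letters only, and no binding of a Smad was measured in these libraries.

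Reads recovered on genes came to between 17187595 and 37951742 per mRNA library. Values are normalized read counts (CPM, scaled by TMM), and a log2-fold-change is the log2 ratio of CPM plus 1. The first 4 libraries and the 4 shRNA libraries were normalized in separate tables. Ruvbl1, the gene for Pontin, had 198 CPM in WT and, after 3 and 4 days of OHT, 33.3 and 50.9. It was also lower at Tc 2D, with 85.0 CPM against 166 and 186 in the ZHBTc4 control libraries. The log2-fold-changes were -1.21 over WT and -1.04 over the controls, or -0.85 with all 8 libraries put on one median-ratio scale. By immunoblot and quantitative RT-PCR, the study reported that Oct4 depletion did not significantly change Pontin protein or mRNA. The lower value in the Tc 2D library was not tested. Pou5f1, the gene for Oct4, had 301 CPM in WT, 642 and 582 in the ZHBTc4 control libraries and 21.1 at Tc 2D. All 18 pluripotency markers were above 1 CPM in every library but Tc 2D, where 16 were. The Y-linked gene Ddx3y had 0 reads in WT, 43.5 CPM at Tc 2D and 51.3 and 45.9 CPM in the ZHBTc4 control libraries, and the Tc 2D library differs from WT in its line as well as in Oct4.

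The plot of CPM by library gives all 8 genes side by side. Per kb of exon, the only scale on which genes are compared here, Bmpr1a (12.6 CPM per kb) and Id2 (11.2) were the most abundant of the 8 in WT. Id1 (6.67) and Bmp4 (4.10) followed, then Id3 (2.65), Smad6 (1.55) and Bambi (1.48), of which Smad6 and Bambi differed by less than their counting error. In the ZHBTc4 control libraries the order was another one, with Id1 highest at 58.2 and 45.7 CPM per kb. Bmp4, Bmpr1a, Id2 and Id3 lay between 8.79 and 15.7 there, with ranges that met for Id3 and each of the others. Msx1 was last in every library.

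**Figure D1:**
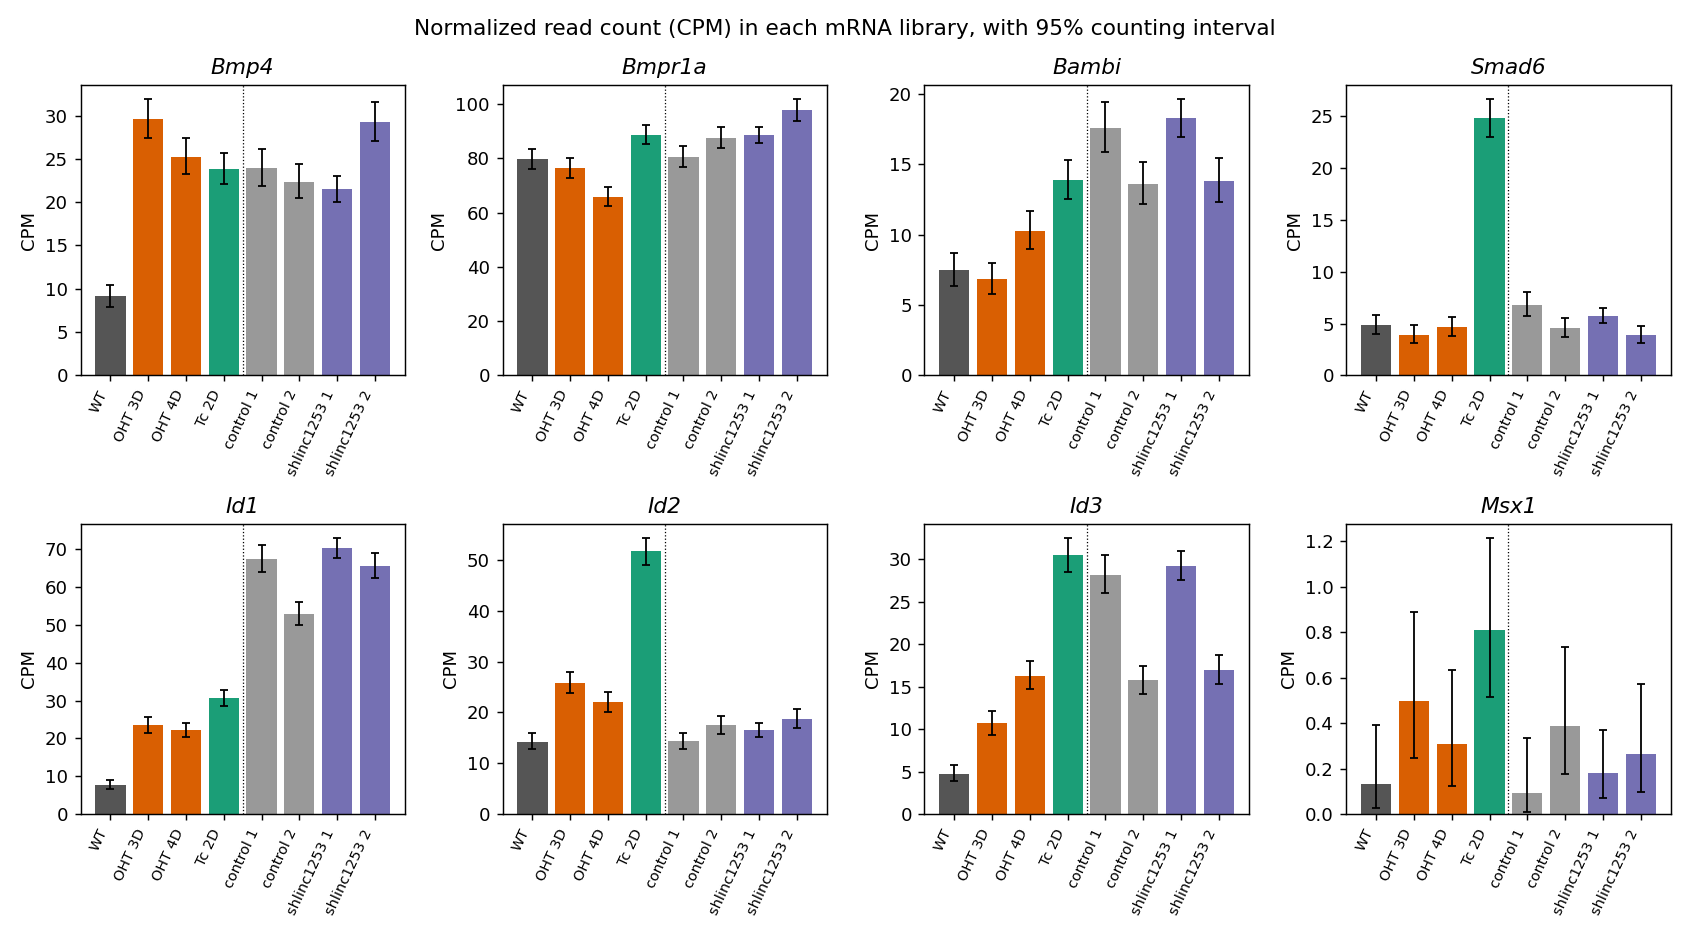
Bars give the CPM of each gene in each of the 8 mRNA libraries, and whiskers the 95% Poisson interval of its reads. The dotted line separates the tables that were normalized separately. Bmp4, Id1, Id2 and Id3 are lowest in WT, where Id2 is level with ZHBTc4 control 1 within counting error. Smad6 and Id2 are highest at Tc 2D, and Id1 is highest in the ZHBTc4 libraries without Tc.

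To ask how the pathway changed after deletion of Pontin, each OHT time point was compared with WT, and values are given in the order WT, OHT 3D, OHT 4D unless stated. WT was untreated, so OHT, active Cre and days in culture differ along with Pontin. These cannot be told apart from its loss. The ligand gene and the 3 Id genes rose at both time points, by 1.51 to 3.02 times on the scale of CPM plus 1. The receptor, the decoy receptor and the inhibitory Smad did not pass the threshold at either. With 1 library per time point there is no replicate check and no test, and a call means an absolute log2-fold-change above 0.58. Of the 8 genes, 7 passed the filter of 1 CPM in at least 1 of the 4 libraries, and at each of both time points 4 of them were upregulated and 0 downregulated. Among 13449 genes tested, 6.01% (OHT 3D) and 6.48% (OHT 4D) were upregulated, and 5.88% and 8.89% downregulated. The median log2-fold-change of the 7 genes was 0.81 and 0.59, against -0.02 and -0.0033 over all genes. Both comparisons share the WT library. Between OHT 3D and OHT 4D, 0 of the 7 passed the threshold, where 5.47% of all genes were higher at the later time and 8.84% lower.

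Bmp4 (ENSMUSG00000021835, chromosome 14, 47003195 to 47010344) had 9.12, 29.6 and 25.2 CPM. Both OHT libraries lay above WT, and their counting intervals did not meet that of WT. The log2-fold-changes were 1.60 and 1.37, and without the added 1 the ratio at OHT 3D was 1.70 with a 95% counting interval of 1.47 to 1.93. The gene overlaps Gm15217 and Gm15222 on the other strand, as Bmpr1a overlaps Gm17110, and since the library kit does not mark strand, reads on the shared stretches cannot be assigned. Gm15217 was listed at up to 0.219 CPM.

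Id1 (ENSMUSG00000042745, chromosome 2, 152561987 to 152563146) had 7.73, 23.5 and 22.2 CPM. The OHT libraries were alike within their counting error and both above WT, with log2-fold-changes of 1.49 and 1.41. Id3 (ENSMUSG00000007872, chromosome 4, 135699412 to 135701670) had 4.74, 10.7 and 16.3 CPM. Of these 3 Id genes it was the one with a higher value at OHT 4D than at OHT 3D, at log2-fold-changes of 1.59 and 1.02, though the step between the time points, 0.57, did not pass the threshold. Id2 (ENSMUSG00000020644, chromosome 12, 25778666 to 25780957) had 14.3, 25.8 and 22.0 CPM. Its rise was the smallest of the 4, 0.81 and 0.59, and the second of these stands just past the threshold and was 0.53 with a pseudocount of 3.

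Bmpr1a (ENSMUSG00000021796, chromosome 14, 35223920 to 35316527) had 79.8, 76.3 and 65.8 CPM, at log2-fold-changes of -0.06 and -0.27. Smad6 (ENSMUSG00000036867, chromosome 9, 63800953 to 63869866) had 4.87, 3.94 and 4.64 CPM. Neither gene passed the threshold, and the intervals of Smad6 in the 3 libraries overlapped. Bambi (ENSMUSG00000024232) had 7.47, 6.83 and 10.3 CPM, with log2-fold-changes of -0.11 and 0.41. Msx1 (ENSMUSG00000048450, chromosome 5, 38211724 to 38215822) had 3, 11 and 7 reads. It never passed the filter, and its ratio of OHT 3D to WT, 1.89 on the log2 scale, had a counting interval of -0.03 to 4.37.

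Fibroblast markers rose in the same OHT libraries. Of 29 fibroblast markers that passed the filter, 26 and 27 were upregulated, with 0 downregulated. Of the 32 listed, 18 were above 1 CPM in WT and 29 at each OHT time point. Markers under 1 CPM in WT, here and in the lists below, passed the filter through another library and had little room to fall. The summed level over the 32 fibroblast markers was 914, 1362 and 1393 CPM. Without Fn1, left out after its values were seen, it was 119.8, 720.4 and 837 CPM. Fap and Lum were at 0 reads in WT and at OHT 3D. Trophectoderm markers were also upregulated, 7 and then 8 of 13, and primitive endoderm markers, 7 and 11 of 14, with 1 of each list downregulated at the first time point and 0 at the second. The part of these cells in the rise of Bmp4 and the Id genes was not tested, and in bulk RNA more cells of a type and more RNA per cell cannot be told apart.

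The other genes of the pathway were followed as a list of 87 gene IDs, of which 66 passed the filter. At OHT 3D 15 were upregulated and 1 downregulated, and at OHT 4D 18 and 2, with medians of 0.23 and 0.22. With a pseudocount of 3, OHT 4D gave 11 and 2. The group with the most upregulated genes at OHT 3D was the secreted antagonists, proteins that bind BMPs outside the cell, of which 6 of 11 were upregulated and 0 downregulated at each time point. Grem1, which encodes gremlin, went from 0.715 CPM to 15.7 and 20.8, log2-fold-changes of 3.28 and 3.67. Nbl1, another antagonist of the list, had 1.22 and 2.35, from 0.536 CPM in WT. Genes of the list under 1 CPM in WT, Grem1 and Nbl1 among them, passed the filter through another library and had little room to fall. Bmp1, a protease that cleaves the BMP antagonist chordin, went from 3.04 CPM to 12.3 and 23.6.

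Ligands and receptors of the list gave few calls. Of 6 other ligand genes 0 were upregulated at OHT 3D, and Bmp7 was downregulated with a log2-fold-change of -1.02. Bmp2 was upregulated at OHT 4D by 0.88, from 0.0894 CPM in WT to 1.01. Of 10 receptors and coreceptors, Tgfbr3 was upregulated at OHT 3D by 0.70, and at OHT 4D Rgmb was upregulated by 0.61 while Bmpr2, a type II receptor, was downregulated with -0.98. Among 17 Smads and intracellular regulators only Zfp423, a Smad cofactor, was upregulated at OHT 3D, by 1.33, and only Skil, a repressor of Smads, was downregulated at OHT 4D, with -1.23. Neither was called at the other time point. The 3 E proteins that Id proteins bind gave no call at either.

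Of 15 further target genes, 5 and 7 were upregulated and 0 downregulated. They include Id4, the remaining Id gene, which was named after its values were seen. It had 2.95, 2.85 and 4.21 CPM and was not called, at log2-fold-changes of -0.04 and 0.40. Hand1, a transcription factor of trophoblast and mesoderm, had 0.268, 3.08 and 5.34 CPM. Gata3 had log2-fold-changes of 1.21 and 1.16, Tbx20 had 1.21 and 0.29, the second not called, and Msx2 had 1.02 and 1.75. Hand1, Gata3 and Dlx3, another of the target genes upregulated at both time points, are also among the trophectoderm markers. Dlx3 was named for this overlap after its values were seen.

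**Figure D2:**
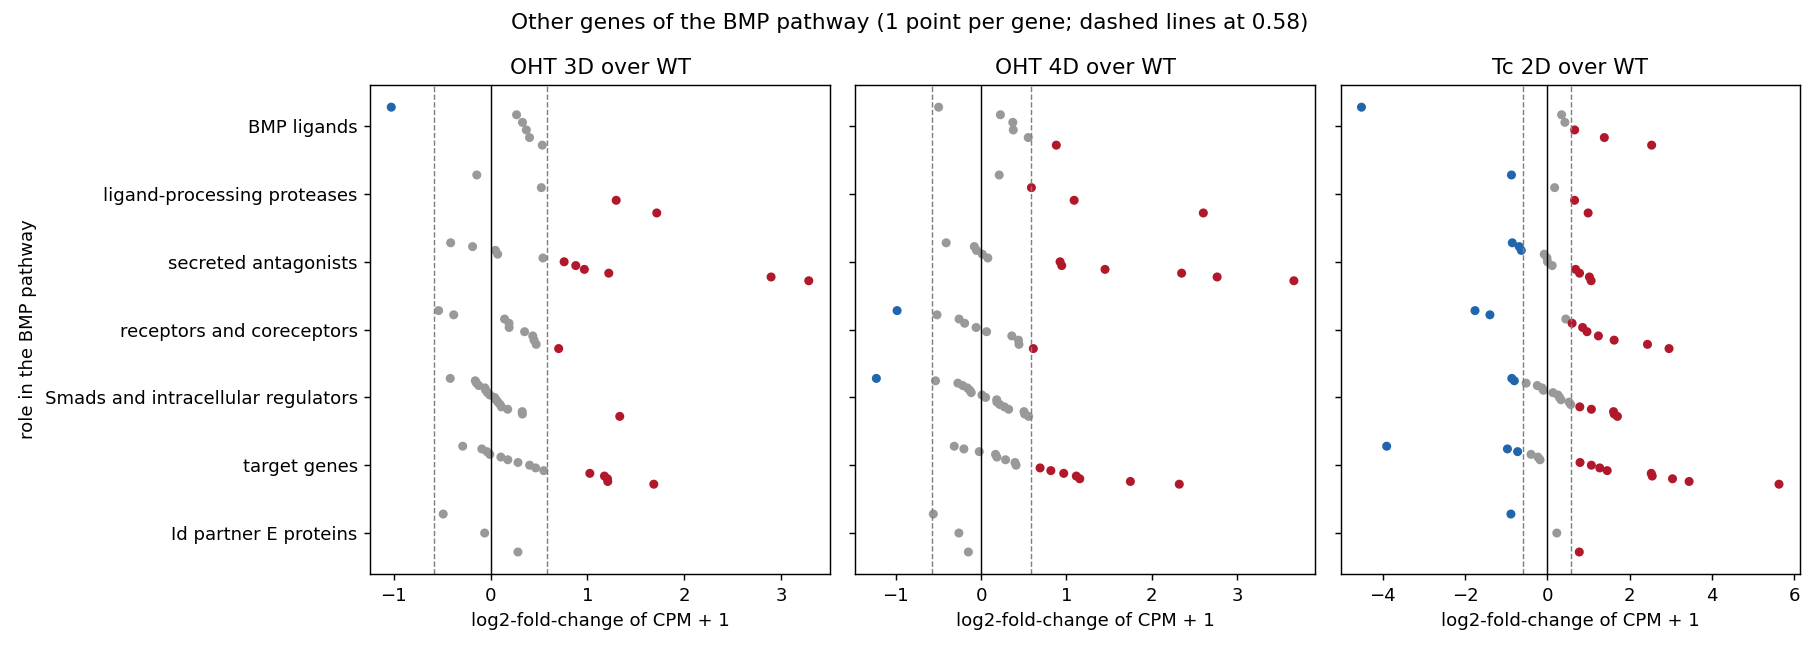
Each point is 1 of the 66 other pathway genes, placed by its log2-fold-change of CPM plus 1 in each comparison with WT, and colored where it lies beyond the dashed lines at 0.58. Secreted antagonists reach past 3 at both OHT time points. At Tc 2D target genes (-3.90 to 5.63) and BMP ligands (-4.51 to 2.54) spread widest.

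To ask what loss of Oct4 did to the same genes, Tc 2D was first compared with WT, the library normalized with it. All 7 genes but Bmpr1a were upregulated, 6 up and 0 down, where 23.9% of all genes were upregulated and 25.8% downregulated. Smad6 and Id2 rose against either control. The rise of Bmp4, Id1 and Bambi did not hold against ZHBTc4 cells without Tc, in which these genes were already above WT, and Id1 went the other way.

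Smad6 had 24.8 CPM at Tc 2D, 4.87 in WT and 6.83 and 4.56 in the ZHBTc4 control libraries. Tc 2D was the one library of 8 above 7 CPM. Its log2-fold-change was 2.14 over WT and 1.97 over the ZHBTc4 controls, or 2.15 once all 8 libraries were put on one median-ratio scale. Id2 had 51.7 CPM at Tc 2D, 14.3 in WT and 14.3 and 17.5 in the controls. Its log2-fold-changes were 1.79 over WT, 1.65 over the controls and 1.83 on one scale, so both comparisons gave a rise of like size.

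Id1 had 30.7 CPM at Tc 2D, which is above WT at 7.73 and below both ZHBTc4 controls at 67.5 and 53.0. The log2-fold-change was thus 1.86 over WT but -0.94 over the controls, and -0.76 on one scale. The ZHBTc4 controls themselves stood above WT by 2.80, or 2.65 on one scale, the widest gap between the lines among the 8 genes. Id3 had 30.5 CPM at Tc 2D, 4.74 in WT and 28.2 and 15.7 in the controls. Its rise of 2.46 over WT came down to 0.51 over the controls, under the threshold, and 0.69 on one scale, just above it, and 1 of the controls, at 28.2, lay close to Tc 2D.

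Bmp4 at Tc 2D, 23.8 CPM, lay between the control libraries at 23.9 and 22.4, with a log2-fold-change of 1.29 over WT and 0.04 over the controls. On one scale it was above both, at 27.2 against 23.9 and 22.4, with 0.22. Bambi had 13.9 CPM at Tc 2D against 17.6 and 13.6 in the controls, and its 0.81 over WT became -0.15, or 0.03 on one scale. Bmpr1a had 88.7 CPM, with 0.15 over WT and 0.08 over the controls. Msx1 had 23 reads at Tc 2D, 0.811 CPM, and 2 and 9 reads in the controls, under the filter.

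**Figure D3:**
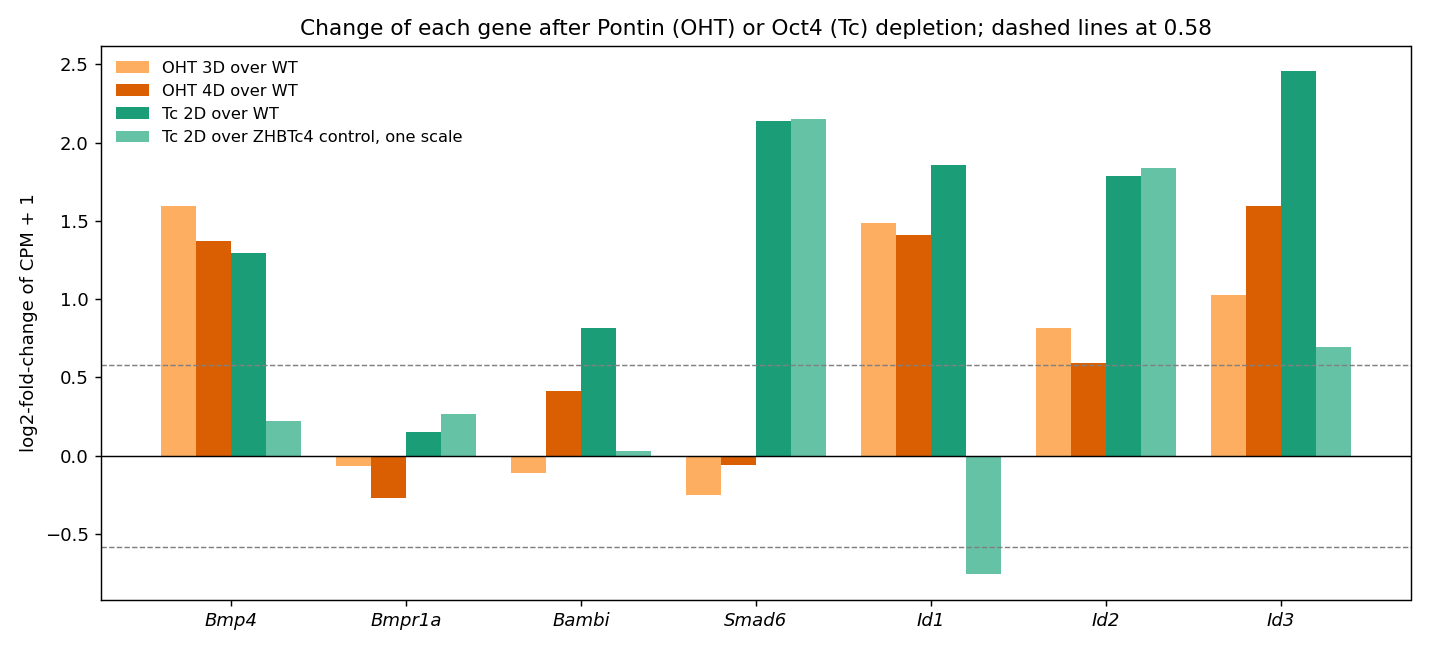
Bars give the log2-fold-change of CPM plus 1 for the 7 genes above the filter, at OHT 3D, OHT 4D and Tc 2D over WT, and at Tc 2D over the mean of the 2 ZHBTc4 control libraries on one scale. Dashed lines mark 0.58. Smad6 and Id2 stand past it at Tc 2D against both controls, whereas Id1 is at 1.86 against WT and -0.76 against ZHBTc4. Id3 is at 2.46 against WT and just past the line against ZHBTc4, at 0.69 (0.51 as deposited).

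Against the ZHBTc4 controls 2 of the 7 genes were upregulated and 1 downregulated, where 18.5% of all genes were upregulated and 28.5% downregulated. On one scale it was 3 and 1, with 24.6% and 22.0%. The one scale moved the median of all genes from -0.14 to 0.03. The ZHBTc4 controls over WT had Bmp4, Bambi, Id1 and Id3 upregulated as deposited, at 1.25, 0.96, 2.80 and 1.95, where 17.3% of all genes were (12.2% on one scale, with 9.89% and 14.5% downregulated). Tables normalized separately meet here, the control libraries carry a lentivirus and were sequenced on another instrument, and these differences cannot be told apart from that of the lines. At Tc 2D, 12 of 13 trophectoderm markers were upregulated over WT and 11 over the ZHBTc4 controls, and 16 and 17 of 18 pluripotency markers were downregulated. Of 14 primitive endoderm markers, 7 were upregulated over WT and 1 downregulated, and 7 and 2 over the controls, at a summed level of 673 CPM against 266 in WT and 308 and 342 in the controls. Of 29 fibroblast markers, 6 were upregulated over WT and 11 downregulated, and 1 and 12 over the controls. The part of the cells behind these markers in the rise of Smad6 and Id2 was not tested.

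Of the 66 other pathway genes, 31 were upregulated and 13 downregulated at Tc 2D over WT, with a median of 0.49 against -0.06 over all genes. Over the ZHBTc4 controls it was 20 and 12, and on one scale 27 and 11. Receptors and coreceptors were upregulated for 7 of 10 over WT, 4 over the controls and 6 over the controls on one scale, with 2 downregulated in each. Rgma, a BMP coreceptor, had log2-fold-changes of 2.96 over WT and 1.44 over the controls. Tgfbr3 had 2.44 and 1.35, while Eng, another coreceptor, was downregulated with -1.75 and -0.88.

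The signal-carrying Smad1 rose at Tc 2D to 62.8 CPM from 19.6 in WT and 24.2 and 25.6 in the controls, 1.63 and 1.30. Smad7, the other inhibitory Smad, rose from 61.6 CPM in WT and 102.7 and 79.4 in the controls to 190.2, 1.61 and 1.07, and Ctdspl, a Smad phosphatase, by 1.71 and 1.65. Both inhibitory Smads were thus above either control at Tc 2D. Bmp8b rose by 2.54 and 2.04, whereas Bmp8a rose by 1.39 over WT and had 0.27 over the controls. Gdf3, a ligand of pluripotent cells, had -4.51 and -4.16.

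Among the proteases at Tc 2D, Bmp1 rose by 0.99 over WT and 1.04 over the controls and Furin by 0.66 and 1.30, whereas Tll1 had -0.87 and -0.21. The antagonists Fstl3 and Fst had 1.07 and -0.85 over WT and 0.85 and -2.53 over the controls, while Htra1 changed sides, at 1.03 and -0.41. Among target genes Hand1 went to 61.8 CPM from 0.268 in WT and 5.35 and 3.23 in the controls. It had the largest log2-fold-change of the list at Tc 2D, 5.63, and 3.60 over the controls. Gata3 had 3.45 and 2.82. Klf4, a pluripotency factor, had -3.90 and -3.65. Of the E proteins, Tcf12 rose by 0.78 and 1.10 and Tcf3 had -0.88 and -0.64, the second -0.45 on one scale and then under the threshold.

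Genes were also ranked by how near their 4 log2-fold-changes (OHT 3D, OHT 4D and Tc 2D over WT, and linc1253 knockdown) lay to those of each member, as the mean absolute difference over 10428 genes with a mean of at least 5 CPM. The nearest to Bmp4 were Fbn1 (0.13), which encodes fibrillin, and Cdh2 (0.17), N-cadherin, and Id1 stood at rank 4. For Id1 they were Vgll3 (0.18) and Bmp4 (0.19). Bmp4 and Id1 were therefore close to each other with Tc 2D taken over WT, whereas over the ZHBTc4 controls they parted, at 0.04 and -0.94 (0.22 and -0.76 on one scale). For Smad6 they were Kank1 (0.06) and Zfp608 (0.07), for Id2 Caskin2 and Daglb (each 0.10), for Id3 Slc25a24 and Phldb2, and for Bambi Irak1bp1 and Trpv2. The first 3 values share the WT library, and the likeness is a description.

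To ask whether linc1253 acts on the pathway, the 2 shlinc1253 libraries were compared with the 2 control libraries. No change was detected for any of the 7 genes that passed the filter there. The labels do not say whether the libraries come from separate cultures, so that a p measures only the spread between them. Bmpr1a had 80.5 and 87.5 CPM in the controls and 88.4 and 97.8 after knockdown, the one gene of the 7 tested whose groups did not overlap, where 18.8% of all genes were higher without overlap and 19.2% lower. The log2-fold-change came to 0.15 ± 0.10 (SE), and its adjusted p of 0.770 by limma with Benjamini-Hochberg adjustment was the smallest of the 7.

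Id1 had 67.5 and 53.0 CPM in the controls and 70.4 and 65.7 after knockdown, a log2-fold-change of 0.18 ± 0.13 (SE). Id2 had 14.3 and 17.5 against 16.5 and 18.7, 0.15 ± 0.14. Both genes had overlapping groups. Id3 spread most, 28.2 and 15.7 against 29.2 and 17.0, with libraries of the same number close together. The other log2-fold-changes were 0.11 for Bmp4, 0.04 for Bambi, 0.08 for Id3 and -0.20 for Smad6, the last with 6.83 and 4.56 against 5.75 and 3.86 CPM. By limma 0 of the 7 passed an adjusted p of 0.05 and 0 an unadjusted one, and the same held for edgeR and DESeq2. With the replicate number as a block in limma, Id1 and Bmpr1a passed the unadjusted p, and 0 of the 7 the adjusted one. Under that block, 1922 of all 13407 genes were higher and 2031 lower at the unadjusted p, a share near that of the 7. Without the block, limma and edgeR called 0 of 13407 genes after adjustment, and DESeq2 called 22 higher and 28 lower. By limma without the block, 496 (3.70%) were higher and 503 (3.75%) lower at an unadjusted p of 0.05.

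Among 65 other pathway genes tested, 8 were higher after knockdown at an unadjusted p of 0.05 and 0 lower, and 0 passed after adjustment. Without the filter, 7 of 87 were higher and 2 lower at the unadjusted p. Bmp2 and Tll1, both among the 8, passed the filter only through a knockdown library. Bmp2 had 0.277 and 0.301 CPM in the controls and 1.13 and 0.658 after knockdown, and Tll1 0.415 and 0.559 against 0.825 and 2.10. With the replicate number as a block in limma, 12 of the 65 were higher and 2 lower after adjustment. Of all 13407 genes, 933 were higher and 1027 lower by that fit. Zfp423 had a log2-fold-change of 0.59 ± 0.12 (SE) and an adjusted p of 0.510 by limma, and Tll1 0.68 ± 0.27. Of the others, Bmp2 had 0.55, and Gdf3, Eng and Fstl1 each about 0.40, with Ski at 0.28 and Klf4 at 0.25. In the same comparison the median log2-fold-change was 0.37 over 27 fibroblast and 0.33 over 12 primitive endoderm markers. It was -0.12 over 11 trophectoderm and 0.10 over 18 pluripotency markers, and -0.0011 over all genes. The part of the cells behind these markers was not tested.

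To ask whether Pontin lies at these genes, Pontin and GFP ChIP-seq reads of ZHBTc4 cells were counted in a window reaching 2.5 kb before and 500 b past each start site and scaled to library size (RPM). The ratio of Pontin to GFP reads was highest at the receptor gene Bmpr1a and the inhibitory Smad6, and lowest at Id3. Over promoters the median was 70 Pontin and 23 GFP reads. A log2 ratio above 1 was found at 2 of the 8 promoters and at 14.5% of 21186, and at 1 of the 8 once scaled by the median ratio over promoters, which puts Smad6 at 1.00 and leaves 6.08% of all promoters above 1. The Pontin library held 40729076 reads and the GFP library 17185883, with 1 of each and no test.

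Bmpr1a had 85 Pontin and 10 GFP reads, a log2 ratio of 1.84 at percentile 98.4 of all promoters, with a counting interval of 0.52 to 3.53. Smad6 had 84 and 14, a ratio of 1.34 at percentile 93.9 and an interval of 0.18 to 2.74. Both intervals exclude 0 and hold 1. Both genes had fewer GFP reads than the median promoter, and Pontin reads near the 85 of Id2. Id1 had 82 and 22 reads, 0.65 with an interval of -0.29 to 1.71, and Msx1 92 and 27, 0.52. Id2 with 85 and 32 and Bmp4 with 53 and 20 each had 0.16, under the median of all promoters, 0.34.

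Bambi, with 64 and 27 reads, had 0.00. In this window Id3 was lowest, with 43 Pontin and 28 GFP reads, a ratio of -0.63 at percentile 7.44. Its interval, -1.57 to 0.34, holds 0. None of the 4 genes that rose at both OHT time points had a ratio above 1, where 14.5% of all promoters did. The ChIP-seq reads come from ZHBTc4 cells and the OHT libraries from the other line, and a link between them was not tested. Within 1 kb of the start site, Bmpr1a had 2.64, Smad6 2.21 and Msx1 1.18, 3 of the 8, where 26.4% of promoters were above 1. Id2 was lowest there with -0.54, and Id3 had 0.03. In the wider window, 13 of the 87 other pathway genes were above 1, where 14.5% of all promoters were.

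**Figure D4:**
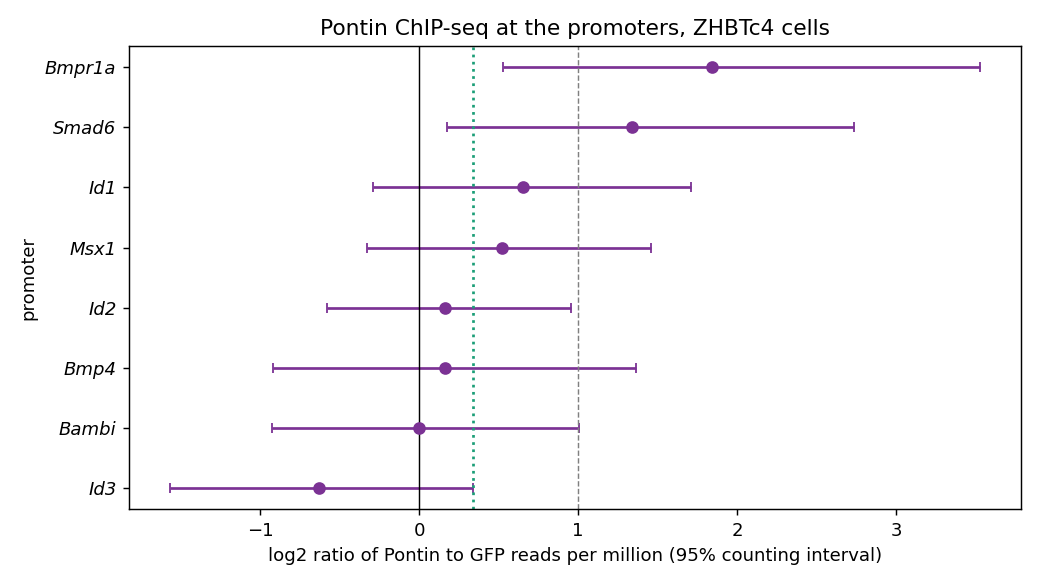
Points give the log2 ratio of Pontin to GFP RPM at each promoter and whiskers the 95% counting interval, with fragments counted once. The dotted line is the median of all promoters, 0.34, and the dashed line is at 1. Bmpr1a and Smad6 lie above 1 and Id3 lies lowest, at -0.63.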

How the data were processed

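The authors trimmed reads with cutadapt, aligned them to NCBIM37 with TopHat, counted reads on genes with HTSeq and deposited CPM after TMM in edgeR, in separate tables for the first 4 and the 4 shRNA libraries. The kit does not mark strand. Dividing by the step of 1 read in a library gave whole reads for 100% of values, within 0.01 read. ChIP-seq reads were aligned with Bowtie2, and the deposited files list single reads with a mapping quality score, at least 5. Columns of other samples were not present (0 left out).

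The 8 genes, the pathway list and the marker lists were chosen with earlier results of these data known. Symbols came from a name table (22337 of 22713 IDs). For depletion the filter was 1 CPM in any of 4 libraries, the pseudocount 1, and the call a log2-fold-change beyond 0.58 in either direction, after the study's methods. For linc1253, the same log2 values of 2 and 2 libraries went into limma 3.58.1 (trend), and p-values were adjusted by Benjamini-Hochberg. The recovered reads went into edgeR 4.0.16 (quasi-likelihood) and DESeq2 1.42.0. Each script was tested on simulated data. Counting intervals (95%) were exact, took mates of 1 ChIP fragment once, and cover counting error only. Promoters are those of protein-coding genes. Named besides the 8 genes were Ruvbl1, Pou5f1, up to 3 genes per role and comparison with the largest absolute log2-fold-change past the threshold, and the 2 nearest genes of each member called. Of these, 1 gene is not reported here. Other settings tried were pseudocounts 0.5 and 3, no filter or one at 5 CPM, median-ratio rescaling, a call above 1, ZHBTc4 controls, limma without trend or with the replicate block, leaving out each library, and for ChIP-seq 1 read per position, median scaling and 1 kb windows. Python 3.11.15 and R 4.3.3 were used. linc1253 itself was not analysed here.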

Additional observations from a re-analysis of the deposited data

Results flagged for a closer look

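Bambi and Bmpr2 had opposite directions at the 2 OHT time points, with 1 library each, and the difference was not tested. In the order WT, OHT 3D, OHT 4D, Bambi had 7.47, 6.83 and 10.3 CPM, a difference of 0.52 between its log2-fold-changes, neither of which passed the threshold. Without the added 1 its log2 ratio at OHT 3D, -0.13, had a counting interval of -0.46 to 0.20, which holds 0. Bmpr2, the type II receptor, had 7.73, 10.8 and 3.42 CPM, log2-fold-changes of 0.44 and -0.98, which differ by -1.42.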

How the results depend on the processing

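Of the 8 genes, 3 to 4 were called at each OHT time point under every alternative run. For Tc 2D, the ZHBTc4 controls took the called genes from 6 to 3, reversed Id1 (-0.94, and -0.76 on one scale) and gave Bambi -0.15. Of the other pathway genes, a pseudocount of 3 left 13 called at OHT 4D in place of 20, and a call above 1 left 11 there, and 24 in place of 44 at Tc 2D. For linc1253, same-numbered libraries deviated together (correlation 0.673), though the labels name no pairing for these 2 pairs. With the replicate number as a block, 2 of the 7 genes (Id1 and Bmpr1a, smallest adjusted p 0.0632) and 25 of the other pathway genes passed an unadjusted p of 0.05 in place of 0 and 8. Of all 13407 genes, 1922 higher and 2031 lower passed it under the block, in place of 496 and 503. Of the other pathway genes, 12 higher and 2 lower then passed an adjusted p of 0.05 in place of 0. The block took the adjusted calls over all genes from 0 to 933 higher and 1027 lower. DESeq2 called 22 and 28. Leaving out 1 library gave 0 to 1 of the 7 genes and 3 to 11 of the other pathway genes at an unadjusted p of 0.05. Id1 was the 1 gene, without control replicate 1, where the 8 dropped to 5. They dropped to 3 without shlinc1253 replicate 2. Median scaling of ChIP-seq left 1 promoter above 1 (Bmpr1a), with Smad6 at exactly 1.00. Leaving out 1 library turned the sign of 4 knockdown log2-fold-changes, none of them called, which ranged from -0.10 to 0.33 for Bmp4, -0.15 to 0.23 for Bambi, -0.45 to 0.043 for Smad6 and -0.32 to 0.48 for Id3. Of the other alternatives for single genes, 146 kept direction and side, and 5 lost the call. Causes were not tested. With 1 library per depletion, no spread is known, and Msx1, with 2 to 23 reads, was too low to compare.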
